A study of Mus musculus with 778 samples.

Results

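The oocyte-secreted growth factors *Gdf9*, *Bmp15*, *Bmp6* and *Fgf8* were taken by name from a table of unique molecular identifier (UMI) counts, as 4 of the 23201 genes in it, and followed in 223 single mouse oocytes of 5 growth stages. All oocytes came from female ICR mice, an outbred stock, and none of the groups was treated. Non-growing oocytes (NGO, diameter under 20 μm, 46 cells) were from mice aged 3 to 4 days. Growing oocytes of 30 to 45 μm (GO1, 51 cells), 50 to 55 μm (GO2, 26 cells) and 60 to 65 μm (GO3, 44 cells) and fully-grown oocytes of over 70 μm (FGO, 56 cells) were from mice aged 3 to 4 weeks, so oocyte growth and mouse age cannot be told apart in any comparison with NGO. Cells were sorted into stages by diameter, after ovaries had been dissociated with enzymes, and were picked by hand.

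*Gdf9* and *Bmp15* encode close relatives within the transforming growth factor-β (TGF-β) family that the oocyte secretes towards the granulosa cells around it. Both are made as precursors, are cut by proprotein convertases, and act on granulosa cells through paired type I and type II receptor kinases and Smad proteins, with effects on follicle growth and on cumulus cell function. *Bmp6* encodes a further bone morphogenetic protein of the oocyte, and *Fgf8* a fibroblast growth factor that is known to act together with BMP15 on the metabolism of cumulus cells.

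Levels are given as counts per 1000000 UMIs (CPM), the UMIs of a gene in all cells of 1 stage over all UMIs of that stage. This is a share of the RNA counted and not an amount per oocyte. From spike-ins, the authors reported a higher relative abundance of mRNA in GO1 oocytes than in NGO. A flat or lower share at that step is therefore not a flat or lower amount per oocyte. A gene was called higher or lower when the CPM of the 2 stages differed at least 2-fold and the higher one reached 10 CPM. The cells came from 4 libraries that shared barcodes, the columns of the table name no library, and each stage was therefore 1 pooled sample with no replicate, so that no test between stages could be made. Intervals in brackets are exact 95% intervals and cover counting error only, except those on shares of cells, which treat cells as independent draws. Depth was uneven, with 22279 to 3898137 UMIs per cell, and the 10 deepest cells held 80.4% of the UMIs of GO1 and 73.2% of those of GO2, against 42.6% to 49.7% in the other stages. GO2 had only 26 cells, so 10 cells are a larger part of it and its share is not directly comparable. Because of the uneven depth, the values in single cells are given beside the sums. All 8 oocyte markers examined (among them *Zp3*, *Dppa3* and *Nlrp5*) exceeded 10 CPM in every stage, and their sum from NGO to FGO was 35508, 15784, 16462, 17402 and 24334 CPM. It was thus lower in GO1 than in NGO, the step in which most members were called, and its part in those differences was not tested. Taken in the order of growth from NGO to FGO, the sum over 9 granulosa markers was 15.99, 43.5, 35.3, 34.98 and 20.4 CPM, with *Amh* at 0.112 CPM or less and *Foxl2* at 0.233 CPM or less in every stage. Of that sum *Cyp19a1* made up 16.3 CPM and *Nr5a2* 14.5 CPM in GO1. The 7 stromal and theca markers summed to between 2.62 and 12.9 CPM, and their highest sum in a single cell was 224 CPM, in NGO. The 5 blood markers summed to between 1.64 and 4.52 CPM. Of the highest of these sums, in NGO, *Cd68* made up 4.48 CPM, while *Hbb-b1* and *Hba-a1* were at 0 throughout.

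The 4 genes lie on different chromosomes. In the NCBIM37 assembly, the build to which the reads were aligned (mm9), *Gdf9* (ENSMUSG00000018238.6) lies on the plus strand of chromosome 11 from 53244525 to 53251406, with 191 bases between it and *Uqcrq* on the other strand. *Bmp15* (ENSMUSG00000023279.7) lies on the minus strand of chromosome X from 5891225 to 5897839. *Fgf8* (ENSMUSG00000025219.7) lies on the minus strand of chromosome 19 from 45811288 to 45817405, and neither gene overlaps another. *Bmp6* (ENSMUSG00000039004.4) lies on the plus strand of chromosome 13 from 38436995 to 38592183, and its 3′ end overlaps *Txndc5* on the minus strand. Whether the counting used strand is not stated, so the *Bmp6* counts may hold reads of *Txndc5* and are uncertain to that degree.

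Promoter sequences were matched by symbol for 2 of the 4 members, *Bmp15* and *Bmp6*, and not for *Gdf9* or *Fgf8*. Both sequences found are shown. These 2 genes shared the stage of their highest CPM, while their promoters differed widely in base composition. Each sequence is from RefSeq (GRCm38.p6), 5′ to 3′ on the strand of the gene, from 250 bases before the transcription start to 50 after it. Capitals mark the Nobox element TAATTA in *Bmp15* and the E-boxes (CANNTG) in *Bmp6*.
*Bmp15* promoter, GRCm38.p6 chrX:6320675-6320974, minus strand: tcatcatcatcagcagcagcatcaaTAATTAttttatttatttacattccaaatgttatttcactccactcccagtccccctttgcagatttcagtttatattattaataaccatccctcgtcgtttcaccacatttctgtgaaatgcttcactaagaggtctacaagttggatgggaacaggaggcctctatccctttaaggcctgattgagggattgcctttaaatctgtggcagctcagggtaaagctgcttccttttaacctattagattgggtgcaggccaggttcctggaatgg
*Bmp6* promoter, GRCm38.p6 chr13:38345466-38345765, plus strand: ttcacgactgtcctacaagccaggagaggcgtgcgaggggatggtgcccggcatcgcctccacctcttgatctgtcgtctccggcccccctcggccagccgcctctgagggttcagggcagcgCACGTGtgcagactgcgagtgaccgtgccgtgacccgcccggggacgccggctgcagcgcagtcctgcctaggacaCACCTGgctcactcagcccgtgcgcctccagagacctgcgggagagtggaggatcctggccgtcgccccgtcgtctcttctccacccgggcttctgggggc

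The *Bmp15* promoter had a GC content of 41.7% and 2 CpG dinucleotides, and 14.1% of the 32851 promoters of the same length had fewer. By contrast, the *Bmp6* promoter had a GC content of 69.3% and 27 CpG dinucleotides, and 84.5% of promoters had fewer. The median promoter held 7 CpG dinucleotides and 52.7% GC. Nobox, a homeobox factor of the oocyte, is known to bind TAATTG and TAATTA, and both words were searched on either strand. *Bmp15* held 1 TAATTA, which began at position -225 from the transcription start, and *Bmp6* held neither word. In all, 12.4% of promoters held at least 1 of the words. The E-box, the element of basic helix-loop-helix factors such as Figla, was matched in 72.3% of promoters, with 1 match in *Bmp15* and 2 in *Bmp6*, the latter beginning at -127 and -51. With both strands searched, the TATA box (TATAAA) was matched in 13.6% of promoters and the GC box (GGGCGG) in 35.7%. The match in *Bmp15* (TATA box) and that in *Bmp6* (GC box) were both on the strand opposite to the gene, so neither word stands in the sequences as printed. These are matches of letters in a short window and do not show that a factor is bound there.

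**Figure D1:**
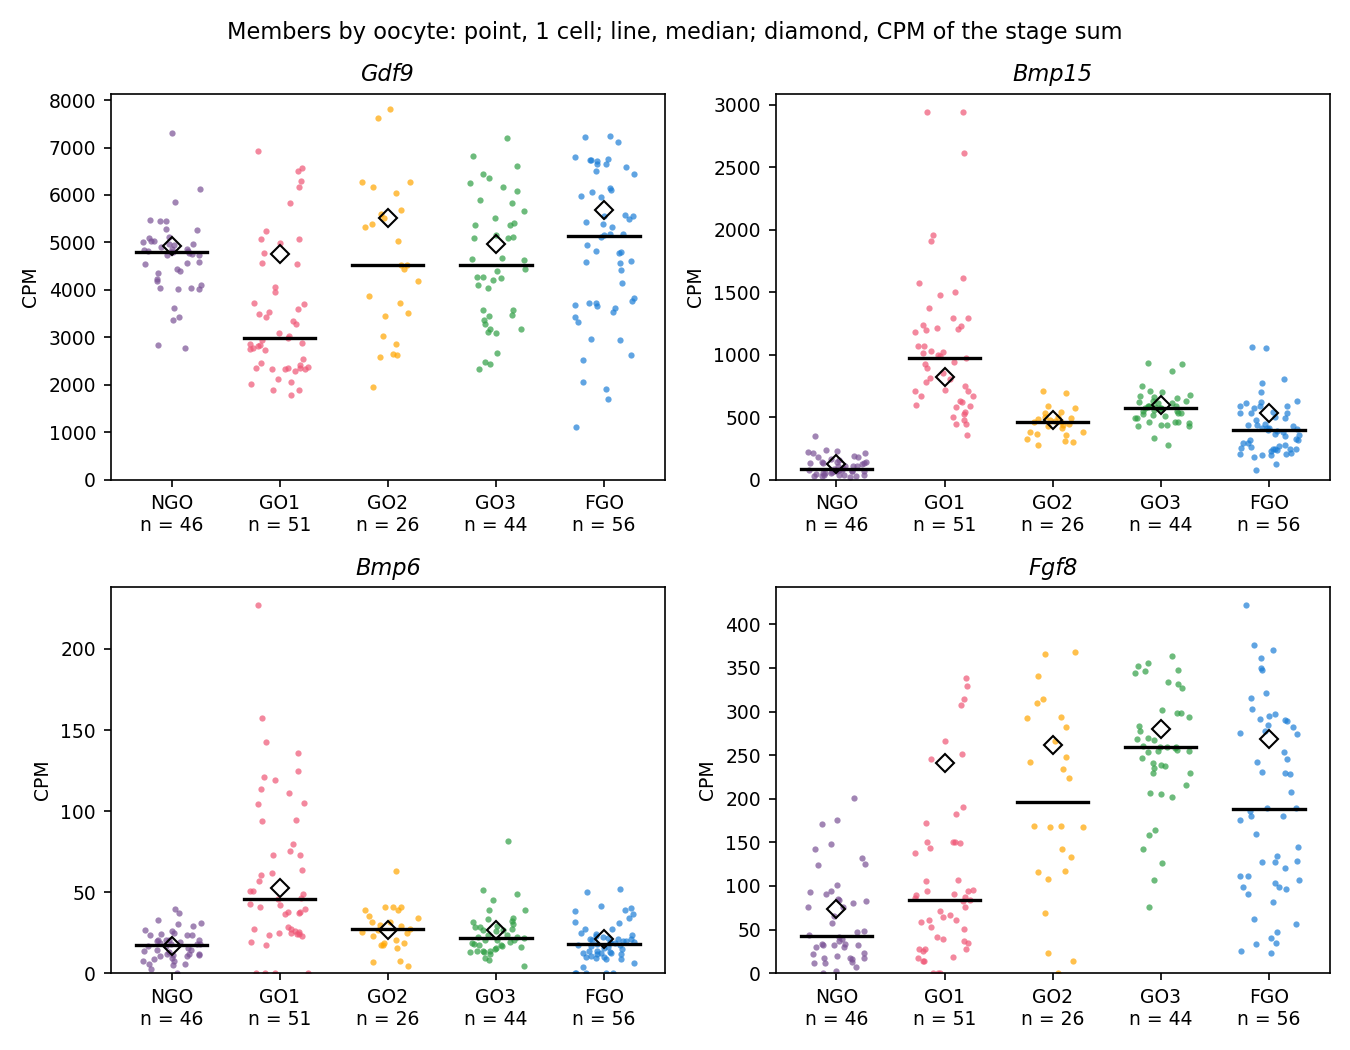
CPM of *Gdf9*, *Bmp15*, *Bmp6* and *Fgf8* in each oocyte (points) by growth stage, with the median over cells (line) and the CPM of the stage sum (diamond), on linear axes that start at 0. The GO1 cells lay above all NGO cells for *Bmp15*, the median of *Gdf9* was lowest in GO1, and in GO1 the diamond lay far above the median for *Gdf9* and *Fgf8*.

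*Gdf9* was abundant from the non-growing oocyte onwards. In the order of growth from NGO to FGO its CPM was 4919, 4755, 5524, 4970 and 5681, from 123944 UMIs in NGO to 365352 in FGO. The highest stage exceeded the lowest 1.19-fold, and 2.57% of the 8671 genes that reached 10 CPM in at least 1 stage had a smaller ratio. By the mean over cells the range was 1.39-fold, and 4.62% of genes had a smaller one. Ranked per kilobase of exon among 19703 genes with a length, *Gdf9* was between place 12 and place 17 in the 5 stages. The authors counted UMIs as transcript copies, which need not grow with exon length. Dividing by length raises short genes relative to long ones, so these places depend on that choice. Thus the share of *Gdf9* in the stage sums was high and nearly flat.

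Single oocytes gave a less even picture of *Gdf9*. In NGO the lowest, median and highest cell had 2765, 4802 and 7304 CPM. In GO1 these values were 1782, 2986 and 6932 CPM, and 19 of 51 cells lay below the lowest NGO cell while 0 lay above the highest. The median GO1 oocyte therefore devoted a smaller share of its UMIs to *Gdf9* than the stage sum shows, because the sum is carried by deep cells. The cells of GO2 ranged from 1954 to 7804 CPM (median 4528), those of GO3 from 2334 to 7207 CPM (median 4530) and those of FGO from 1116 to 7250 CPM (median 5134). The coefficient of variation over cells was 16.9% in NGO, the lowest of the 5 stages, and 40.02%, 34.01%, 28.4% and 31.95% in GO1, GO2, GO3 and FGO. With each cell thinned to 20000 UMIs, the variance over the mean was 3.33 in NGO and 9.19 to 11.6 in the other stages, so that the lower spread in NGO was also seen at equal depth. By the stage sums the order was FGO, GO2, GO3, NGO and GO1, whereas by the median over cells it was FGO, NGO, GO3, GO2 and GO1. FGO came first and GO1 last in both orders, and the quartile ranges of all 5 stages overlapped. That order depended on the scaling. GO2 came first and NGO last with DESeq2 factors (6216 and 4512 CPM) and with TMM factors (6116 and 4343 CPM). In the cells at or above the median depth of their stage, GO2 (5912 CPM) was above FGO (5850 CPM).

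*Bmp15* was the member with the widest range between stages. From the first stage to the last its CPM was 128.6, 825, 478, 598 and 535, from 3241 UMIs in NGO to 34418 in FGO. All NGO cells had at least 1 UMI, so the transcript was present before growth at a low level, with a lowest, median and highest cell of 25.1, 88.2 and 349 CPM. GO1 cells had 355, 971 and 2946 CPM by the same order, and each of the 51 was above the highest NGO cell. The gap between the groups was narrow, since the lowest GO1 cell was only just above the highest NGO cell. A complete separation in this direction was found for 30 of 8527 genes (0.352%), and in the other direction, which no member showed, for 0.915% of them.

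In the later stages *Bmp15* was lower than in GO1 and varied less among oocytes. The lowest, median and highest cells were at 279, 463 and 706 CPM in GO2, at 280, 575 and 932 CPM in GO3 and at 75.2, 395 and 1063 CPM in FGO. The coefficient of variation was 63.5% and 54.4% in the first 2 stages and 23.8%, 23.02% and 49.5% in the later ones. The quartile range of GO1 (670 to 1233 CPM) did not overlap that of any other stage, nor did that of NGO (57.8 to 143.9 CPM). GO2 (382 to 501 CPM), GO3 (497 to 632 CPM) and FGO (250 to 537 CPM) overlapped their neighbours in the order of levels. Per kilobase, a scaling with the limit given for *Gdf9*, *Bmp15* moved from place 1703 of 19703 in NGO to place 301 in GO1. It held places 423 to 532 thereafter.

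*Bmp6* was the least abundant member in each stage, also per kilobase. The CPM from NGO to FGO was 16.7, 52.8, 26.3, 26.5 and 21.2, from 421 UMIs in NGO to 1412 in GO1. The lowest, median and highest NGO cells had 0, 17.4 and 39.8 CPM, and those of GO1 had 0, 45.9 and 227 CPM. So GO1 reached further up without leaving the low end, with 29 of 51 cells above the highest NGO cell. The median was 27.2 CPM in GO2 (4.66 to 63.1 CPM), 21.97 CPM in GO3 (4.25 to 81.7 CPM) and 18.1 CPM in FGO (0 to 51.6 CPM). The median of FGO was thus close to that of NGO. No UMI of *Bmp6* was found in 1 NGO cell, 4 GO1 cells and 5 FGO cells, and all cells of GO2 and GO3 had at least 1. At an equal depth of 20000 UMIs, 34.8% of NGO cells (21.4% to 50.2%) and 58.8% of GO1 cells (44.2% to 72.4%) had a UMI. These intervals treat the cells of 1 pooled sample as independent draws, so they cannot decide whether the stages differ. A mean of 0.370 to 1.04 UMIs per thinned cell leaves little room to rank the stages by the share of cells with a UMI. The table holds no cell type that lacks the gene, so its background share is not known.

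*Fgf8* was low before growth, and its cells differed with depth in the growing stages. The stages had 74.1, 241, 262, 280 and 268 CPM in the order of growth, from 1867 UMIs in NGO to 17264 in FGO. On these sums NGO stood apart and the 4 later stages lay within 1.16-fold of each other. Over cells the picture was graded, with a lowest, median and highest value of 0, 43.01 and 201 CPM in NGO, and of 0, 83.4 and 338 CPM in GO1. In GO2 the values were 0, 196 and 369 CPM, in GO3 76.1, 259 and 364 CPM and in FGO 22.8, 188 and 422 CPM. Only 7 of 51 GO1 cells were above the highest NGO cell, against 26 of 56 FGO cells, and the quartile ranges of NGO (22.4 to 88.9 CPM) and GO1 (38.6 to 150 CPM) overlapped. Cells without a UMI numbered 1 in NGO, 3 in GO1, 1 in GO2 and 0 in GO3 and FGO. The coefficient of variation was lowest in GO3 at 26.4% and ranged from 54.3% to 85.99% in the other stages. By the sums, by the mean and by the median over cells *Fgf8* peaked in GO3, and not in GO1 as *Bmp15* and *Bmp6* did. The stage of that peak was not stable. With DESeq2 factors GO2 was highest (294 CPM against 284 CPM in GO3). In the cells at or above the median depth of their stage it was FGO (293 CPM against 289 CPM in GO3).

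The first step of growth, from NGO to GO1, held most of the calls. *Bmp15* was 6.42-fold higher in GO1 (6.19 to 6.66), *Fgf8* 3.26-fold (3.09 to 3.43) and *Bmp6* 3.16-fold (2.83 to 3.53). These 3 members were called higher, against 20.6% of the 8527 genes tested, and 0 were called lower, against 25.7%. The median log2 difference of all genes tested was -0.15. *Gdf9* differed by -0.05 on the log2 scale, a value that turned positive with DESeq2 size factors (0.05) and TMM factors (0.11), scalings that moved the median of all genes by 0.10 and 0.16.

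How the cells were weighted mattered for *Fgf8* and *Gdf9* and less for *Bmp15* and *Bmp6*. The log2 difference of *Bmp15* lay between 2.50 and 3.69 and that of *Bmp6* between 1.40 and 2.19 under 9 other ways of scaling, averaging or choosing cells, so both stayed above 2-fold. *Fgf8* fell below 2-fold with the mean over cells (1.70-fold), with the median over cells (1.94-fold), with thinned cells (log2 difference 0.83) and without the 10 deepest cells of each stage (0.79). For *Gdf9* the difference without those cells was -0.76, and it was -0.42 by the mean over cells and -0.69 by the median.

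**Figure D2:**
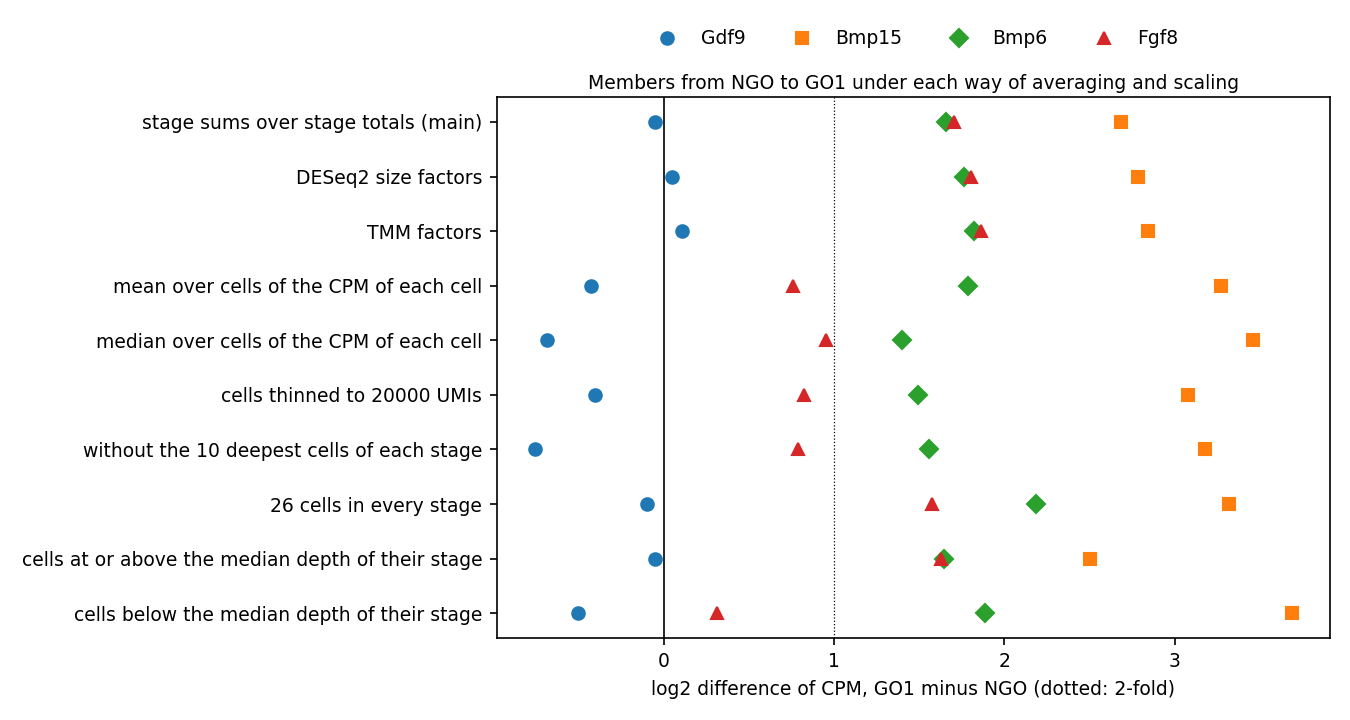
Log2 difference of CPM, GO1 minus NGO, of the 4 members (symbols) by the stage sums and under 9 alternatives (rows), with the 2-fold line dotted. *Bmp15* and *Bmp6* stayed to the right of the 2-fold line in each row, *Fgf8* crossed it in 5 of the 9, and *Gdf9* lay near or below 0, above it in the DESeq2 and TMM rows alone.

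After GO1 few members passed the size rule. From GO1 to GO2, *Bmp6* was 2.003-fold lower (1.83 to 2.20), just past the limit, and was the only member called lower, against 3.03% of 7356 genes; 0 were called higher, against 0.109%. *Bmp15* was 1.73-fold lower in GO2 by the sums and not called, while its mean over cells in GO2 was 0.429 of that in GO1. From GO2 to GO3 no member was called, against 3.34% of genes higher and 1.01% lower, and from GO3 to FGO no member was called, against 2.41% higher and 3.54% lower. By the sums the largest difference in these last steps was that of *Bmp6* from GO3 to FGO, with a log2 difference of -0.33. By the mean over cells it was that of *Bmp15*, whose FGO mean was 0.723 of that in GO3, against 0.773 for *Bmp6*. Of the 56 FGO cells, 18 lay below the lowest GO3 cell for *Bmp15*, and 8 for *Fgf8*.

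Over the whole of growth, from NGO to FGO, *Bmp15* was 4.16-fold higher (4.01 to 4.31) and *Fgf8* 3.62-fold higher (3.45 to 3.80). These 2 of 4 members were called, against 11.3% of 8132 genes. Both calls were made under each of the 9 other ways of scaling, averaging or choosing cells. *Bmp6* was 1.27-fold higher in FGO and *Gdf9* 1.15-fold higher, and neither was called, with a log2 difference of -0.03 for *Bmp6* between the shallower cells of both stages. From GO1 to FGO, *Bmp6* alone was called by the stage sums, 2.49-fold lower (2.31 to 2.69), against 9.03% of 7873 genes lower and 7.98% higher. Over single cells *Bmp15* was lower too, with a mean in FGO 0.389 of that in GO1, a median 0.406 of it and 24 of 56 FGO cells below the lowest GO1 cell, and the median of *Fgf8* was 2.25-fold higher. By the stage sums *Bmp15* and *Bmp6* had their highest CPM in GO1, as did 23.8% of 8671 genes. On the same sums *Fgf8* had it in GO3, as did 9.39%, and *Gdf9* in FGO, as did 11.9%. The highest stage of *Fgf8* and of *Gdf9* depended on the setting.

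The balance of *Gdf9* and *Bmp15*, whose proteins are known to act together and can form a heterodimer, moved more than either gene from one growing stage to the next. The ratio of *Gdf9* to *Bmp15* UMIs, not scaled by length, was compared only between stages. It was 38.2 in NGO (36.9 to 39.6) and 5.76 in GO1 (5.68 to 5.84). In GO2, GO3 and FGO it was 11.5 (11.3 to 11.8), 8.31 (8.21 to 8.41) and 10.6 (10.5 to 10.7). Taken cell by cell, the median ratio was 50.6, 3.27, 10.9, 7.60 and 12.1 in the order of growth. GO1 oocytes therefore had the lowest ratio and NGO the highest by both measures. The cells of NGO ran from 15.7 to 177 and those of GO1 from 1.55 to 18.5, so the groups overlapped at the edge. Without the 10 deepest cells of each stage the ratio of the sums was 49.6 in NGO and 3.24 in GO1, so the GO1 value rests in part on deep cells with a higher ratio.

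**Figure D3:**
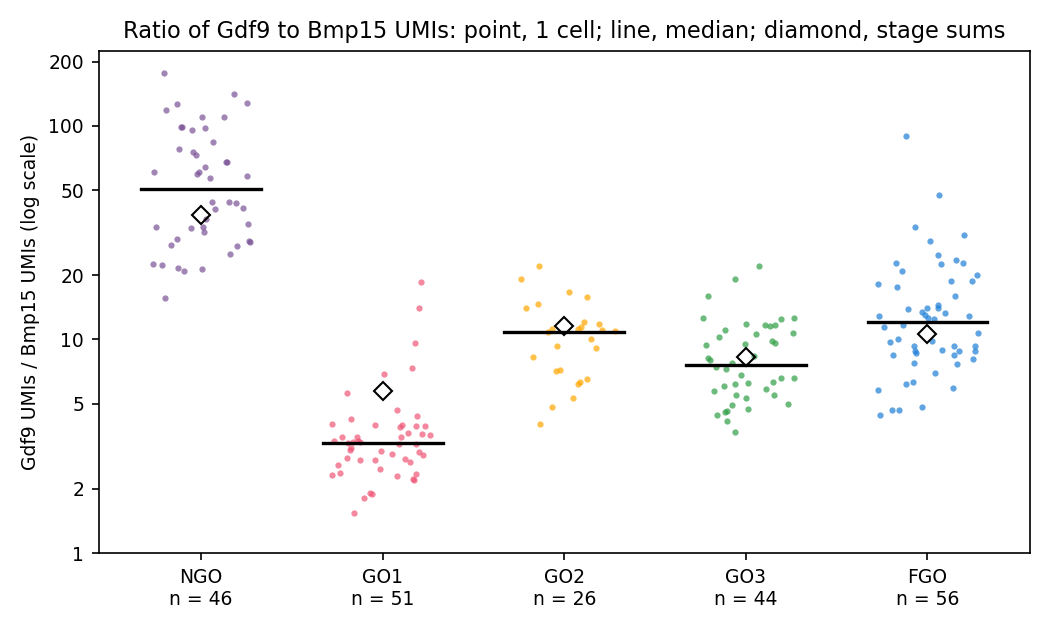
Ratio of *Gdf9* UMIs to *Bmp15* UMIs in each oocyte (points, log axis) by stage, with the median over cells (line) and the ratio of the stage sums (diamond). NGO cells lay highest, with a median of 50.6, and GO1 cells lowest, with a median of 3.27, and the GO1 diamond at 5.76 compares with 3.24 without the 10 deepest cells.

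The ratio of *Bmp15* to *Fgf8* also set GO1 apart. In cells with both transcripts, the median ratio of *Bmp15* to *Fgf8* UMIs was 1.90 in 45 NGO cells, 9.75 in 48 GO1 cells, 2.29 in 25 GO2 cells, 2.19 in 44 GO3 cells and 2.15 in 56 FGO cells. The ratio of the GO1 sums, which give deep cells more weight, was 3.42 and below that of the median cell. *Bmp15* against *Bmp6* had a median ratio of 5.43 before growth and of 17.1, 17.5, 24.2 and 21.4 in the stages from GO1 to FGO. The change in that balance between NGO and GO1 was kept in the later stages.

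Oocytes of the same stage differed in the members in a way that moved with their depth. For *Fgf8*, Spearman's rho between its CPM and the UMI total of the cell was 0.21, 0.60, 0.76, 0.53 and 0.71 from NGO to FGO. Among genes at 50 CPM or more, *Fgf8* was at percentile 73.8, 94.7, 97.6, 92.96 and 95.1 of such values from NGO to FGO. *Bmp15* had a rho of -0.52 in GO1, at percentile 2.65, and of 0.62 in FGO, at percentile 85.5. The sign of the relation of *Bmp15* to depth thus turned between these stages. The median rho of the genes at 50 CPM or more was 0.24 in GO1 and 0.24 in FGO. For *Gdf9* the values from NGO to FGO were 0.48, -0.10, 0.77, 0.41 and 0.62, at percentiles 97.97, 18.8, 98.1, 80.4 and 85.7. *Bmp6* lay between -0.15 and 0.44, with few UMIs per cell.

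Splitting each stage at its median depth shows the size of this. The 25 shallower GO1 cells had 65.1 CPM of *Fgf8* and 1098 CPM of *Bmp15*, and the 26 deeper ones 251.002 CPM and 810 CPM. For *Gdf9* the shallower GO1 cells had 3263 CPM and the deeper ones 4837 CPM. The sums of GO2 for these 3 genes were 262, 478 and 5524 CPM. Over single cells the order for *Gdf9* was the other way, with a median of 3336 CPM in the shallower and 2795 CPM in the deeper GO1 cells, since a few very deep cells carry the deeper sum. In FGO, *Fgf8* was at 126.1 CPM in the 28 shallower and 293 CPM in the 28 deeper cells, and *Bmp15* at 277 and 580 CPM. In GO3 the 2 sets differed 1.16-fold for *Fgf8* and 1.15-fold for *Bmp15*. From NGO to GO1, the log2 difference of *Fgf8* was 1.63 between the deeper cells and 0.31 between the shallower ones. The part of depth, RNA content and oocyte size in these differences was not tested.

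**Figure D4:**
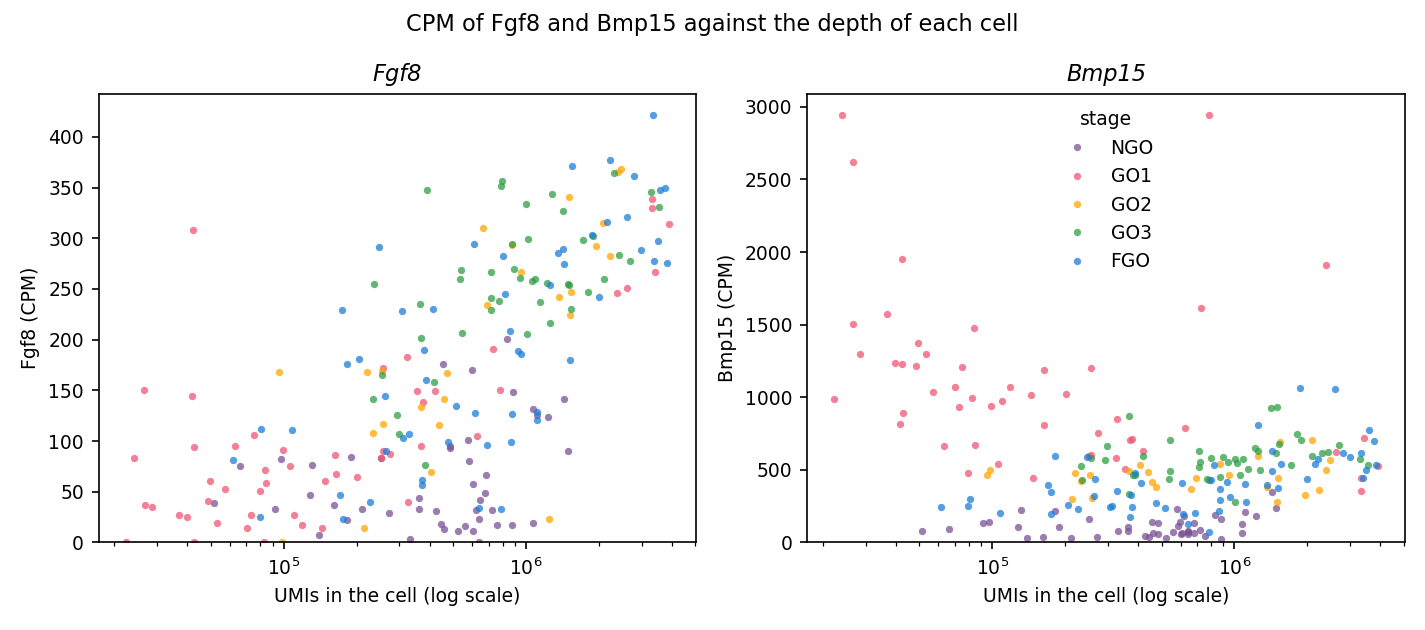
CPM of *Fgf8* (left) and *Bmp15* (right) in each oocyte against the UMIs counted in it (log axis), coloured by stage. *Fgf8* was higher in deeper cells of GO1, GO2, GO3 and FGO, whereas GO1 cells below the median depth of their stage had more *Bmp15* (1098 CPM in their sum) than deeper ones (810 CPM).

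The members were also compared with each other across the cells of a stage, whose depths differed and whose libraries are not known, so that both can enter these values. *Bmp15* and *Fgf8* had a Spearman's rho of 0.69 over 46 NGO cells and 0.79 over 56 FGO cells, but -0.32 over 51 GO1, 0.04 over 26 GO2 and -0.19 over 44 GO3 cells. *Gdf9* and *Fgf8* had a rho of 0.79 in GO2 and 0.75 in GO3, against 0.26 in NGO, 0.22 in GO1 and 0.43 in FGO. *Gdf9* and *Bmp15* ranged from -0.29 in GO3 to 0.50 in GO1. *Bmp15* and *Bmp6* had a rho of 0.57 in GO1 and 0.18 to 0.39 in the others. No pair of members kept 1 strong relation in all 5 stages. The summed granulosa markers moved with *Bmp15* in NGO (rho 0.52) and GO2 (0.47) and with *Fgf8* in NGO (0.45), and their part in these levels was not tested. For *Gdf9* and *Bmp6* the rho with that sum lay between -0.11 and 0.17 in the 5 stages.

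The other genes of the pathway were read from 8 lists that did not contain the members. All but 1 of their genes were in the table, 120 in number, and 35 reached 10 CPM in any stage. From NGO to GO1, 34 could be compared, 15 were called higher and 8 lower, where 20.6% and 25.7% of all genes tested were, and their median log2 difference was 0.60, against -0.15 for all genes tested. Of the 34, 7 were under 10 CPM in NGO and 8 under 10 CPM in GO1, so they entered the comparison only through the stage where they were high, and the counts and the median do not show that the lists moved as a whole. The split also depended on how cells were weighted, with 16 higher and 7 lower by DESeq2 or TMM factors, 12 and 9 by the mean over cells, 10 and 10 in the shallower cells and 8 and 12 by the median over cells.

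Among other TGF-β family ligands, 3 of 23 could be compared, too few to describe the list. Of these, 1 was called higher and 0 lower, against 20.6% and 25.7% of all genes tested, and the median log2 difference was 0.43. *Tgfb3* was called lower by the median over cells and in the shallower cells. *Bmp5*, a relative of *Bmp6*, was at 13.8 CPM in NGO and 159.3 CPM in GO1, 11.5-fold higher (10.3 to 12.9), and stayed at 152.9 CPM in GO2 and 119.1 CPM in GO3 before a CPM of 47.3 in FGO. Its CPM in GO1 exceeded that of *Bmp6* in the same stage sum, a comparison of UMIs and not of levels per length. *Tgfb2* was at 374 CPM in NGO and 448 CPM in GO1, not called.

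Of the type I, II and III receptors, 4 of 13 could be compared and these 4 were called higher, against 20.6% of all genes tested. *Bmpr1a* and *Tgfbr3* were under 10 CPM in NGO and were compared only because of their GO1 level, so the count is a description of these genes and not of the list. *Bmpr2*, the type II receptor that binds GDF9 and BMP15, was 3.13-fold higher in GO1 (12.1 and 37.8 CPM). *Bmpr1b*, the type I receptor used by BMP15, was the most abundant receptor and just past the limit at 2.01-fold (46.8 and 94.1 CPM). *Bmpr1a* was 3.71-fold higher (5.87 and 21.8 CPM) and *Tgfbr3*, the co-receptor betaglycan, 3.03-fold (5.95 and 18.02 CPM). *Bmpr1b* was not called in the deeper cells alone, *Bmpr2* not in the shallower cells alone and *Tgfbr3* not by the median over cells.

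Genes of the Smad list were called in both directions. Of 12 genes compared, 5 were called higher and 3 lower, against 20.6% and 25.7% of all genes tested, and the median log2 difference was -0.05. Of the 12, 2 (*Smad1* and *Smurf1*) were under 10 CPM in NGO and 4 (among them *Id1* and *Id2*) were under 10 CPM in GO1. These were compared only because of the stage where they were high, so the count describes these genes and not the list. By the median over cells 3 were called higher and 5 lower. The ubiquitin ligase gene *Smurf2* was 5.69-fold higher (11.6 and 66.1 CPM), *Smad3*, a mediator of GDF9 signals, 4.68-fold (10.4 and 48.8 CPM) and the common mediator *Smad4* 3.58-fold (14.1 and 50.5 CPM). *Smad1* and *Smurf1*, named after their values were seen, were the other 2 called higher, and *Smad1* lost the call by the mean and the median over cells, in thinned cells, without the 10 deepest cells and in the shallower cells, and *Smurf1* by the median over cells. All 3 inhibitors of differentiation in the list, which are classic targets of BMP signals, were lower in GO1. *Id3* was at 185 CPM in NGO and 12.9 CPM in GO1, 14.3-fold lower (12.8 to 16.02), and then at 12.8, 43.1 and 83.4 CPM in GO2, GO3 and FGO. *Id1* was 5.32-fold lower and *Id2* 4.07-fold lower in GO1. *Ski*, a Smad co-repressor, was at 214 CPM in NGO and 148.2 CPM in GO1, not called.

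Few genes that act on the secreted proteins reached 10 CPM. Of 14 antagonists and modulators, 1 could be compared and was not called (*Twsg1*, 12.4 and 8.90 CPM). *Bambi*, next to it by the highest CPM in any stage (5.78 CPM in FGO), was at 5.52 CPM in NGO and 0.785 CPM in GO1. Of 11 genes for proprotein convertases and propeptide processing, 2 could be compared. *Furin*, a convertase of the secretory pathway, was at 20.0 and 33.5 CPM and was not called, and *Mbtps1* was 2.58-fold lower (22.8 and 8.86 CPM), a call not made in thinned cells.

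On the FGF side, 1 of 20 other ligands, *Fgf1*, could be compared. *Fgf9*, which had the highest CPM among them (13.8 CPM in FGO), was at 7.90 CPM in NGO and 9.87 CPM in GO1. It was thus under 10 CPM in both of these stages, and was called higher in GO1 in thinned cells alone. *Fgf1* was at 0.317 CPM in NGO (8 UMIs) and 11.7 CPM in GO1 (314 UMIs), 36.97-fold higher (18.5 to 86.4), but it did not reach the limit by the mean or the median over cells, in thinned cells, without the 10 deepest cells or in the shallower cells. Of 18 FGF receptor and feedback genes, 17 were in the table, 5 could be compared, 3 were called higher and 0 lower, against 20.6% and 25.7% of all genes tested. *Fgfr2* and *Spred1* were under 10 CPM in NGO and were compared only because of their GO1 level. *Spry4*, a feedback inhibitor of receptor kinase signals, was 15.8-fold higher (14.1 to 17.8), with 12.4 CPM in NGO and 196 CPM in GO1, and then 180, 158.5 and 53.8 CPM in GO2, GO3 and FGO. *Fgfr2* was 9.21-fold higher (1.63 and 14.99 CPM) and *Spred1* 3.70-fold (3.33 and 12.3 CPM). *Fgfr2* lost the call by the median over cells, in thinned cells and in the shallower cells, and *Spred1* by the median over cells. *Spry1* was at 32.9 and 61.5 CPM and was called with DESeq2 and TMM factors only.

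Transcription factors known to act on *Gdf9* or *Bmp15* were mostly lower in GO1. All 6 could be compared, 1 was called higher and 4 lower, against 20.6% and 25.7% of all genes tested, and the median log2 difference was -2.11. *Sohlh1* and *Sohlh2* were under 10 CPM in GO1 and were compared only because of their NGO level, which bears on the count and the median. *Nobox* had 1244, 897, 1186, 1745 and 1658 CPM from NGO to FGO, not called by the sums but called lower in GO1 by the mean and the median over cells, in thinned cells, without the 10 deepest cells and in the shallower cells. *Figla* was at 597 and 65.5 CPM (9.11-fold lower), *Sohlh2* at 54.2 and 5.31 CPM (10.2-fold lower) and *Sohlh1* at 374 and 0.336 CPM, the last from 9417 and 9 UMIs. *Lhx8*, named after its values were seen, was 2.06-fold lower and lost the call with DESeq2 and TMM factors and with 26 cells in every stage. *Nr6a1*, the germ cell nuclear factor, known as a repressor of both genes, was 2.33-fold higher (24.3 and 56.6 CPM), a call lost by the mean and the median over cells, in thinned cells, without the 10 deepest cells and in the shallower cells. Between NGO and GO1, *Gdf9* and *Bmp15* themselves had log2 differences of -0.05 and 2.68 by the sums. By the mean over cells these were -0.42 and 3.27, and by the median over cells -0.69 and 3.46. The part of these factors in the levels of either gene was not tested.

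**Figure D5:**
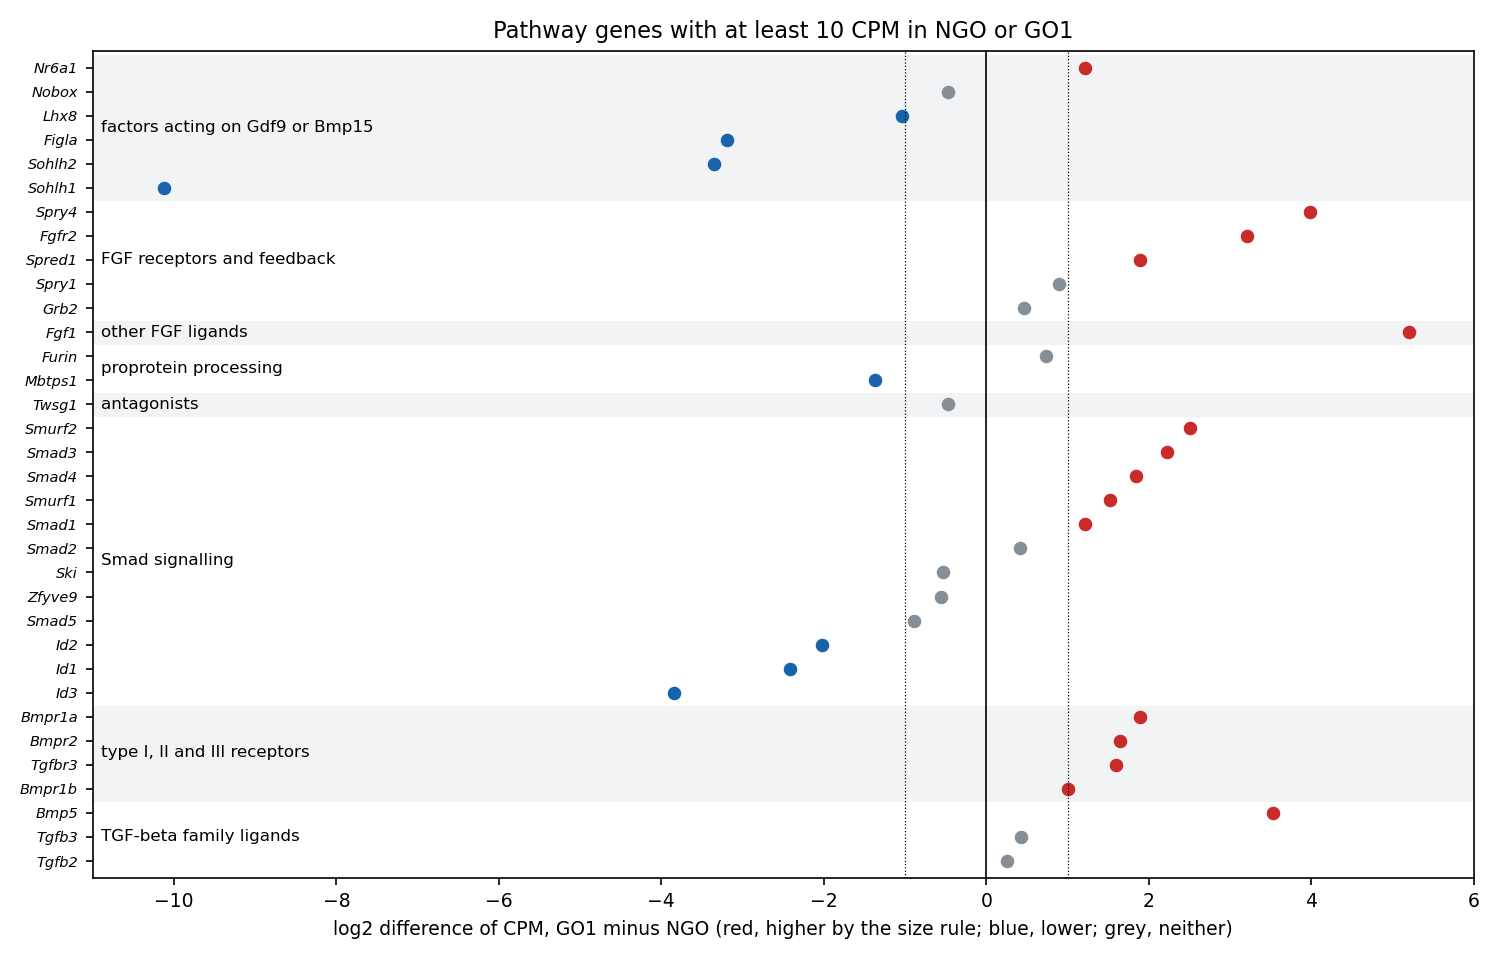
Log2 difference of CPM, GO1 minus NGO, of the 34 pathway genes that reached 10 CPM in NGO or GO1, grouped by list (shaded bands), with the 2-fold lines dotted. The 4 receptor genes lay to the right of the upper line, the 3 Id genes and 4 transcription factors to the left of the lower one, and 11 genes between the lines.

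The genes whose stage profile was most like that of each member were found from the root mean square (RMS) difference of centred log2(CPM + 1) profiles over the 5 stages, among 8670 other genes that reached 10 CPM in at least 1 stage. For *Gdf9* the 5 nearest included *Ufl1* (RMS 0.017), *U2af1l4*, *Cyb5b* and *Cog8*. *Bmp15* had *Dcp1a* (RMS 0.10), *Nlrp4e*, *Cecr2*, *Dennd4c* and A430093F15Rik. *Bmp6* had *Rasa1* (RMS 0.041), *Fyn*, *Trim24*, *Ppp2ca* and *Whamm*, and *Fgf8* had *Enox1* (RMS 0.017), *Stbd1*, 1600002D24Rik, *H3f3b* and 2610316D01Rik. The profile of *Dcp1a* was 51.1, 290, 205, 240 and 199 CPM from NGO to FGO, and that of *Enox1* was 168, 535, 568, 617 and 588 CPM. By Spearman's rho over all 223 cells instead, into which depth, stage and library can enter, *Dcp1a* was at place 5 for *Bmp15* (rho 0.82), and none of the 5 nearest genes was kept for the other 3 members. By that measure *Bmp15* was at place 7 of 8670 for *Bmp6* (rho 0.55). The other members were not among the 100 nearest of any member by RMS, and the closest was *Fgf8* at place 262 for *Bmp15*.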

How the data were processed

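Reads were split by cell barcode, trimmed and mapped by the authors with Tophat to the transcriptome of mm9, and the deposited table gives raw UMI counts for each gene in each cell, after copies with the same UMI had been collapsed. They kept cells by their numbers of genes, transcripts and spike-in reads, and the table holds 223 cells. Of 4 libraries, 2 used the same 96 barcodes, each of which served at least 2 libraries, and the columns give neither barcode nor library. No 2 cells had identical counts, and no doublet caller was run on these hand-picked oocytes.

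Here counts were summed per stage and scaled to CPM, with totals of 24976634 to 64311908 UMIs. The called genes needed a 2-fold difference and 10 CPM. Intervals were exact Poisson for sums, binomial-split for ratios of sums and Clopper-Pearson for shares, all at 95%. Alternatives were DESeq2 1.42.0 and edgeR 4.0.16 factors (for scaling only), the mean and the median over cells, cells thinned to 20000 UMIs, sums without the 10 deepest cells, 26 cells per stage, other limits and, chosen after seeing the data, the cells on either side of the median depth. The size rule was run on simulated stage sums with planted changes larger than its limit. The simulated sums held counting error only, so they do not show how the rule behaves under the spread between cells. Gene lengths and positions are from GENCODE vM1 on NCBIM37, with 19703 of 23201 genes matched by name, and promoters from RefSeq. Scripts ran in R 4.3.3 and in Python 3.11.15 (scipy 1.17.1, pandas 2.3.3, numpy 2.4.6).

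The members and lists were chosen with earlier results of these data known. Named pathway genes are, per list, up to 3 past the size rule in each direction with the largest difference and the 2 with the highest CPM. The chromatin and methylation data of the study were not used here. Of the genes most like a member, 1 is not reported here.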

Additional observations from a re-analysis of the deposited data

How the results depend on the processing

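From NGO to GO1, *Bmp15* and *Bmp6* were called higher in the main setting and in each of the 12 alternatives, and *Fgf8* in 7 of the 12. The 1.5-fold limit and the absence of a minimum CPM only loosen the rule and could lose no call. Nor could a limit of 50 CPM for *Bmp15* (825 CPM in GO1) or *Fgf8* (241 CPM). *Fgf8* lost the call by the mean and the median over cells, in thinned cells, without the 10 deepest cells and in the shallower cells. From NGO to FGO the count of members called was 2 in each setting, and it was 0 in the steps GO2 to GO3 and GO3 to FGO. The step from GO1 to GO2, with 1 member called (*Bmp6* lower), depended on the setting. The count was 0 with DESeq2 factors, with TMM factors and in the cells at or above the median depth. It was 2 by the mean over cells, with 26 cells per stage and at 1.5-fold (*Bmp15* and *Bmp6* lower), 2 by the median over cells (*Bmp15* lower and *Fgf8* higher) and 3 in the cells below the median depth (*Bmp15* and *Bmp6* lower, *Fgf8* higher). In thinned cells the 1 call was *Bmp15* lower, and without the 10 deepest cells it was *Fgf8* higher. The cause was not tested. The direction of *Gdf9* from GO2 to GO3 turned under 2 of 9 alternatives and that of *Bmp6* under 6 of 9, from log2 differences of -0.15 and 0.01. That of *Gdf9* from NGO to GO1 turned under 2, and 1 alternative each turned *Bmp6* from NGO to FGO and *Fgf8* in the steps GO2 to GO3 and GO3 to FGO. No paired analysis was possible because each stage was 1 pooled sample whose columns carry no library or replicate number. Few UMIs per cell limit *Bmp6*, the sums of GO1 rest on few deep cells, and those of GO2 rest largely on 10 of its 26 cells.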
